A study of Homo sapiens with 9 samples.

Results

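The genes analysed were the 43 protein-coding collagen genes whose symbols follow the pattern COL, number, A, number, with COL26A1 set aside. They were found through the Ensembl gene identifiers of the count files and make up 43 of the 60675 genes in these files. By class they comprised 11 fibrillar chains, 6 basement membrane chains of type IV collagen, 10 fibril-associated chains (FACIT, which sit on the surface of fibrils), 4 transmembrane chains and 12 chains of other kinds. The cells were LNCaP:C4-2, a castrate-resistant prostate cancer line derived from LNCaP, transduced with a doxycycline-inducible short hairpin RNA (shRNA). There were 3 groups of 3 libraries each. The control group carried shScramble, a hairpin without a gene target, and the other groups carried shMETTL3 guide 2 or shMETTL3 guide 1, directed at the mRNA of the m6A methyltransferase METTL3. All groups were selected with puromycin at 1 μg/ml for 3 weeks and received doxycycline at 1 μg/ml for 6 days in phenol red-free medium with charcoal-stripped serum, and the labels of all groups name a vehicle. The study calls the selected cells stable clones, and how many clones each group holds is not given in the sources used here. The labels do not say whether the libraries of a group came from separate cultures, so p-values measure only the spread between these libraries, which may be technical.

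Collagens are proteins of 3 chains wound into a triple helix, and a given type is made either of copies of 1 chain or of a fixed combination of partner chains. Fibrillar collagens assemble into the fibres of connective tissue, type IV collagen forms the sheet-like network under epithelia, and FACIT and transmembrane collagens link fibrils or cells to the surrounding matrix. In the normal prostate most fibrillar collagen is made by stromal cells, whereas the epithelium, luminal cells above a layer of basal cells, is bounded by a basement membrane that contains type IV collagen.

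METTL3 mRNA was measured first, as the target of both hairpins. Throughout, log2 fold changes are given ± their standard error in the edgeR model, and mean levels ± SD over 3 libraries. The level of METTL3, in TMM-scaled counts-per-million (CPM), was 29.8, 31.7 and 32.9 with shScramble, 16.5, 16.5 and 15.8 with guide 2 and 29.3, 30.1 and 29.6 in the libraries labelled guide 1. It was lower with guide 2 in every library (log2 fold change -0.95 ± 0.069, edgeR adjusted p = 2.97e-12; exact permutation test, two-sided, p = 0.1, the smallest that 3 against 3 libraries allow), while the libraries labelled guide 1 overlapped with shScramble (log2 fold change -0.083 ± 0.063, edgeR adjusted p = 0.251; exact permutation p = 0.2). Since METTL3 mRNA was not lowered there, that group is referred to by its label. The total count per library was between 21899501 and 30897639, and a gene with 3 counts, taken here as the floor, has 0.0971 to 0.137 CPM depending on the library. Of 10 luminal prostate markers none was at 0, and their summed level was 3093 to 3203 CPM with shScramble, 3216 to 3420 with guide 2 and 1635 to 1709 in the libraries labelled guide 1.

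Collagen expression was dominated by type VI in all groups. Levels of different genes were compared per length, in transcripts-per-million (TPM), and COL6A1 and COL6A2, partner chains of the beaded filaments of type VI collagen, together held 72.7% of the collagen TPM with shScramble, 77.2% with guide 2 and 55% in the libraries labelled guide 1. The summed level of all 43 genes was 437, 441 and 432 TPM with shScramble, 321, 307 and 314 TPM with guide 2 and 398, 449 and 420.0 TPM in the libraries labelled guide 1. All guide 2 libraries were below all shScramble libraries, whereas in TPM the libraries labelled guide 1 spread to both sides of them. By RPKM, which is also per length but uses TMM-scaled library sizes, the libraries labelled guide 1 were all below every shScramble library. They were at 115.1, 123.4 and 121.1 RPKM, against 128.5, 132.2 and 126.5 RPKM with shScramble. In these bulk RNA samples, fewer cells making a collagen and less collagen RNA per cell cannot be told apart.

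The classes did not keep 1 proportion to each other across the groups. Fibrillar chains summed to 25.2 ± 0.583 TPM (SD, n = 3) with shScramble, 16.7 ± 0.560 TPM with guide 2 and 30.8 ± 1.65 TPM in the libraries labelled guide 1. Basement membrane chains summed to 31.2 ± 1.06, 19.7 ± 0.701 and 64.2 ± 5.12 TPM, and FACIT chains to 51.1 ± 3.32, 26.0 ± 1.65 and 68.8 ± 1.13 TPM, in the same order. In each of these classes the guide 2 libraries lay below and the libraries labelled guide 1 above the shScramble libraries, with no overlap. Transmembrane chains were the least expressed class, with 2.01 ± 0.449, 1.35 ± 0.175 and 12.3 ± 1.39 TPM, and here too the 3 groups did not overlap, although by RPKM in place of TPM shScramble replicate 2 (0.477) lay below guide 2 replicate 2 (0.494). The remaining class, which holds type VI, was lower in both shMETTL3 groups than with shScramble, at 328 ± 4.51, 250.2 ± 5.81 and 246 ± 18.0 TPM. These sums are descriptions, and no test was made on them.

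**Figure D1:**
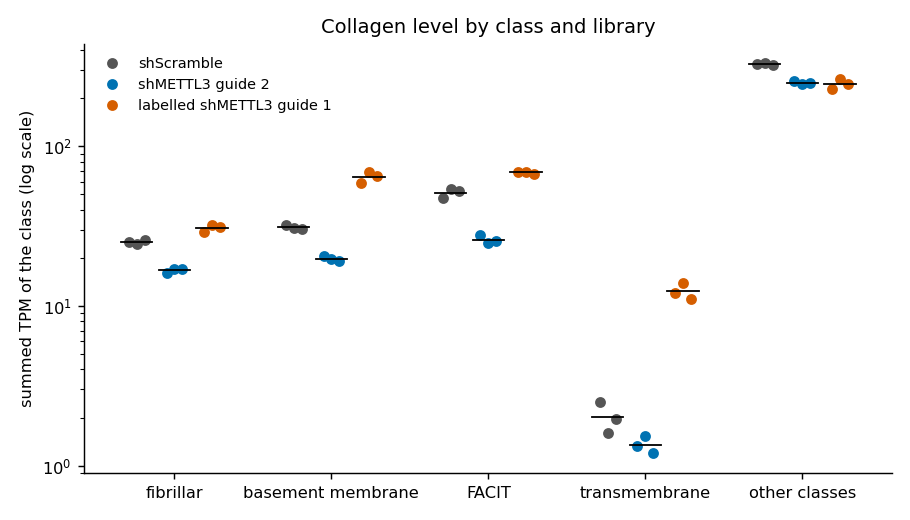
Summed level of the collagen genes of each class in transcripts-per-million (TPM, log scale) in the 9 libraries, with shScramble in grey, shMETTL3 guide 2 in blue and the libraries labelled shMETTL3 guide 1 in orange. Points are libraries and lines are means of 3 libraries. The transmembrane class lay at 1.35 TPM with guide 2 and at 12.3 TPM in the libraries labelled guide 1.

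Change was tested across all genes in edgeR, and calls required both an adjusted p (Benjamini-Hochberg) under 0.05 and a fold of 1.5 or more, which is 0.58 on the log2 scale. Of the 43 collagen genes, 28 had enough counts for the test. The filter's level was reached in every library by 21 of them, 7 were below it in at least 1 guide 2 library, and COL19A1 and COL20A1 entered only through the libraries labelled guide 1, so counts over the 28 are not counts over all collagen genes. Against shScramble, guide 2 libraries had 1 collagen gene raised (COL9A3), 14 lowered and 13 not called. The background was that 29.3% of all 19278 genes tested were called, with 8.85% raised and 20.4% lowered. By library size alone in place of TMM the split over all genes was 1012 raised and 4865 lowered in place of 1706 and 3939, while the collagen counts stayed at 1 and 14. The median log2 fold change was -0.62 over the 28 collagen genes and -0.04 over all genes tested.

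The share of lowered genes depended on the level of expression over all genes, so the collagens were also read within 3 tertiles of the tested genes by mean level over all libraries. In the lowest tertile 38.4% of all genes were lowered with guide 2, and 6 of 11 collagens were. In the middle tertile 19.5% of all genes were lowered, against 6 of 12 collagens, and in the highest tertile 3.38% of all genes, against 2 of 5 collagens (COL16A1, and COL14A1, whose mean over the 9 libraries comes mostly from those labelled guide 1). By class, the 14 lowered genes comprised 4 of 7 fibrillar, 4 of 6 basement membrane, 4 of 7 FACIT and 1 of 3 transmembrane chains and 1 of 5 others.

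In the libraries labelled guide 1, 10 of the 28 collagen genes were raised against shScramble (COL19A1, which entered the test through this group, among them), 3 were lowered (COL1A1, COL16A1 and COL21A1) and 15 were not called. Over all genes 37.7% were called, with 21.2% raised and 16.5% lowered. The median log2 fold change was 0.48 over the collagen genes and -0.02 over all genes. The raised genes comprised all 3 transmembrane chains tested, 3 of 6 basement membrane, 2 of 7 fibrillar and 2 of 7 FACIT chains, and none of the 5 others. Both comparisons share the shScramble libraries, so each is given with its own values.

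Whether the shMETTL3 groups differed from each other was tested directly. Guide 2 against the libraries labelled guide 1 gave 21 collagen genes lower with guide 2 (COL19A1 and COL20A1 among them), 2 higher (COL1A1 and COL9A3) and 5 not called (COL4A5, COL9A2, COL6A1, COL6A2 and COL8A2), against 47.3% of all genes called, with 19.1% of all genes higher and 28.2% lower. The median log2 difference was -1.43 over the collagen genes and -0.06 over all genes. The values of 25 of the 28 collagen genes did not overlap between these groups, against 75.8% of all genes tested. For guide 2 against shScramble the number was 18, against 66.5%, and for the libraries labelled guide 1 against shScramble it was 20, against 71% of all genes. A total of 6 collagen genes were called in opposite directions against shScramble, lower with guide 2 and higher in the libraries labelled guide 1, namely COL27A1, COL4A1, COL4A2, COL14A1, COL25A1 and COL19A1. Of these, COL19A1 entered the test only through the libraries labelled guide 1, and its guide 2 call depended on single libraries, as given with its counts.

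**Figure D2:**
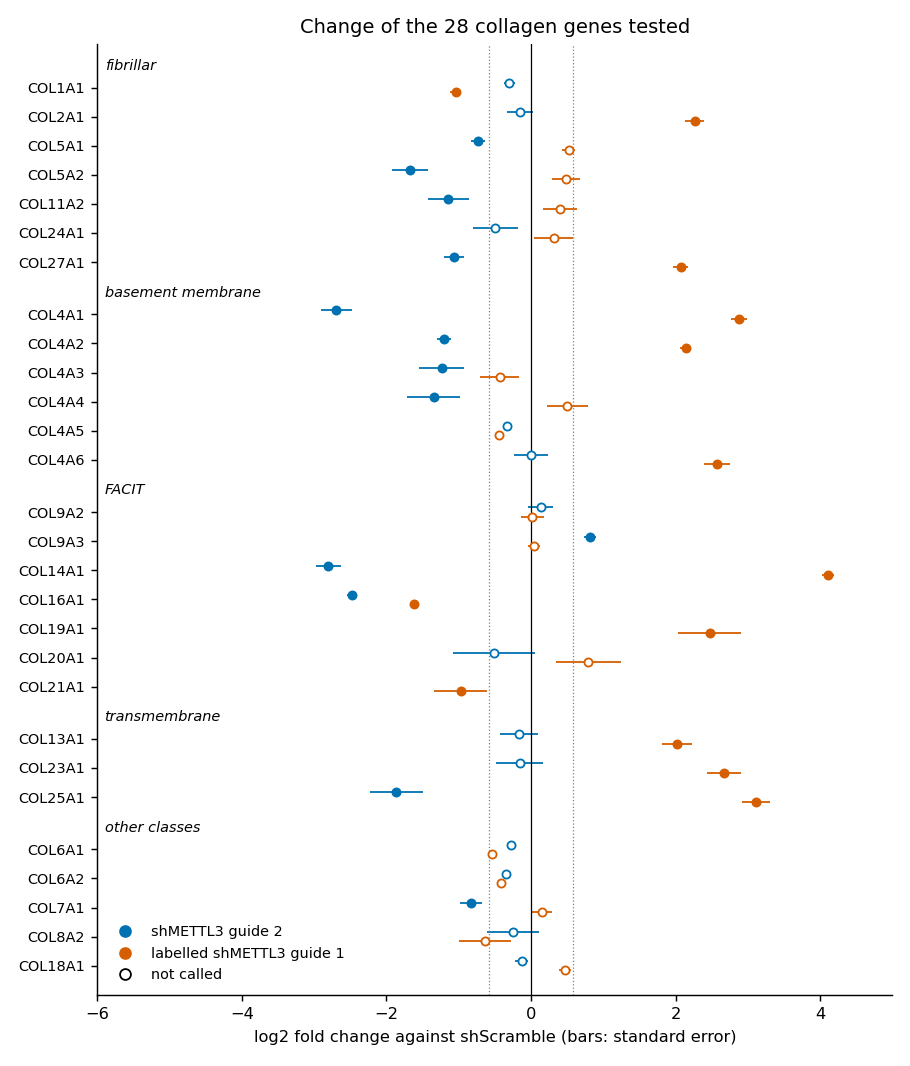
Log2 fold change against shScramble of the 28 collagen genes tested, grouped by class, for guide 2 (blue) and the libraries labelled guide 1 (orange). Bars are standard errors, filled points were called, and dotted lines mark a fold change of 1.5. The guide 2 points of COL19A1 and COL21A1 are left out because 2 counts or fewer were seen in that group. COL14A1 spans the widest range, from -2.80 to 4.11.

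The 6 type IV chains lie in 3 pairs of genes, each transcribed in opposite directions from a shared stretch of DNA, and the pairs are shown here because their partners did not always move together. In the RefSeq annotation of GRCh38.p14 the starts of COL4A1 and COL4A2 on chromosome 13 are 126 bases apart, those of COL4A4 and COL4A3 on chromosome 2 are 418 bases apart, and those of COL4A6 and COL4A5 on the X chromosome are 379 bases apart. The sequences are given 5′ to 3′ on the stated strand, without bases that the authors' annotation places in exons. Capitals mark the letters GGGCGG of the GC box, or the letters of the CCAAT box, on either strand, and no stretch held the TATAAA of a TATA box.

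COL4A1 and COL4A2, chr13:110307158-110307266, plus strand: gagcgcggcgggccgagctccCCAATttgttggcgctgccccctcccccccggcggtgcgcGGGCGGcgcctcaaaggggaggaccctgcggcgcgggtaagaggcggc
COL4A4, chr2:227164206-227164455, minus strand: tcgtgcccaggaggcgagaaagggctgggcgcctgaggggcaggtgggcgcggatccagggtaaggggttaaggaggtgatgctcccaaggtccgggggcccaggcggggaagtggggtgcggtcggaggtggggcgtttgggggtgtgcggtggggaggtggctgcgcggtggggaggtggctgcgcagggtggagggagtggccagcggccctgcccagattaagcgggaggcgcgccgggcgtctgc
COL4A3, chr2:227164374-227164564, plus strand: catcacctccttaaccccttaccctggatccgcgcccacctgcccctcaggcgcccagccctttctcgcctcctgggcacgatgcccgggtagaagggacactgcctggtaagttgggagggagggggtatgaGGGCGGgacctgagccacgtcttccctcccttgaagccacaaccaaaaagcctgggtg
COL4A6, chrX:108439498-108439708, minus strand: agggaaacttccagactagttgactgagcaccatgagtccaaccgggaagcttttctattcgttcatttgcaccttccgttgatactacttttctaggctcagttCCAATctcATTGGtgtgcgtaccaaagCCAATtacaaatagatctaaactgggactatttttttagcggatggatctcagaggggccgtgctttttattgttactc
COL4A5, chrX:108439588-108439837, plus strand: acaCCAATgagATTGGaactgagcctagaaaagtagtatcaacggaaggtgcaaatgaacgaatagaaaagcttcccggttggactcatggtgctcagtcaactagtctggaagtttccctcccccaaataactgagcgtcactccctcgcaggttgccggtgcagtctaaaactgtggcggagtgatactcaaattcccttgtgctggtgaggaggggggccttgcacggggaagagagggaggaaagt

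The stretch between COL4A1 and COL4A2 was 78.0% G and C and held 1 GC box and 1 CCAAT box. The COL4A6 side of the X-linked pair was 43.1% G and C and held the CCAAT letters at 3 positions, of which 2 also fall in the overlapping COL4A5 window, and no GC box. Among 35116 windows of 250 bases before RefSeq gene starts, 42.6% held a GC box, 32.0% a CCAAT box and 10.7% a TATA box. Of the 43 collagen genes, 31 had at least 1 such window, and of their 43 windows 24 held a GC box, 12 a CCAAT box and 8 a TATA box. These are matches of letters and not measured binding sites.

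COL4A1 and COL4A2, which encode the chains of the widespread type IV network, were lower with guide 2 and higher in the libraries labelled guide 1. COL4A1 (ENSG00000187498, chr13:110148963-110307149, minus strand) was at 4.297, 4.64 and 3.06 CPM with shScramble, 0.736, 0.598 and 0.544 CPM with guide 2 and 27.1, 30.8 and 31.8 CPM in the libraries labelled guide 1. The groups were far apart and did not overlap. With guide 2 it fell (log2 fold change -2.69 ± 0.22, edgeR adjusted p = 2.21e-11), and in the libraries labelled guide 1 it rose (log2 fold change 2.88 ± 0.11, edgeR adjusted p = 9.72e-19). COL4A2 (ENSG00000134871, chr13:110305812-110513027, plus strand) was at 17.6, 16.8 and 15.2 CPM with shScramble, 7.80, 6.57 and 7.29 with guide 2 and 67.1, 76.4 and 75.7 in those labelled guide 1. It moved in the same directions as its neighbour but less far, with a log2 fold change of -1.20 ± 0.091 with guide 2 (edgeR adjusted p = 6.15e-12) and of 2.14 ± 0.07 in the libraries labelled guide 1 (edgeR adjusted p = 2.51e-20).

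The ratio of COL4A1 to COL4A2, both in TPM, therefore differed between the groups. It was 0.256 ± 0.039 (SD, n = 3) with shScramble, 0.092 ± 0.011 with guide 2 and 0.435 ± 0.010 in the libraries labelled guide 1, and the ranges of the groups did not overlap. As background, a molecule of this network contains more COL4A1 than COL4A2 chains.

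COL4A3 and COL4A4, chains of the network of the kidney glomerulus and the lung, were among the scarcer chains tested. COL4A3 had 44, 52 and 26 counts with shScramble, 10, 19 and 13 with guide 2 and 34, 33 and 23 in the libraries labelled guide 1. COL4A4 had 27, 48 and 19 counts with shScramble, 7, 17 and 6 with guide 2 and 40, 45 and 48 in those labelled guide 1. Both were lower with guide 2 than with shScramble in every library (COL4A3, log2 fold change -1.24 ± 0.31, edgeR adjusted p = 0.00111; COL4A4, log2 fold change -1.34 ± 0.36, edgeR adjusted p = 0.00235). Neither COL4A3 (log2 fold change -0.43 ± 0.27, edgeR adjusted p = 0.16) nor COL4A4 (log2 fold change 0.50 ± 0.28, edgeR adjusted p = 0.118) was called in the libraries labelled guide 1. Without shScramble replicate 2, the highest of its group for COL4A4, COL4A4 was called there at a log2 fold change of 0.84 (edgeR adjusted p = 0.0268). The direct difference of COL4A3 between the shMETTL3 groups (log2 fold change -0.81 ± 0.32, edgeR adjusted p = 0.0262) was lost when guide 2 replicate 1 or 3 or guide 1 replicate 1 or 2 was left out, with adjusted p between 0.0548 and 0.116.

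COL4A5, the most abundant type IV chain in the shScramble and guide 2 libraries, moved little. Its level was 56.6, 55.05 and 54.6 CPM with shScramble, 44.9, 45.2 and 41.5 CPM with guide 2 and 40.1, 41.4 and 40.7 CPM in the libraries labelled guide 1. Both shMETTL3 groups lay below shScramble without overlap, but the changes were smaller than 1.5-fold (log2 fold change -0.34 ± 0.054, edgeR adjusted p = 4.63e-06 with guide 2, and log2 fold change -0.44 ± 0.053, edgeR adjusted p = 2.71e-08 in the libraries labelled guide 1). Its neighbour COL4A6, the partner chain in epithelial and smooth muscle basement membranes, was at 2.04, 1.38 and 2.45 CPM with shScramble, 2.38, 1.195 and 2.22 with guide 2 and 10.2, 12.4 and 11.6 in those labelled guide 1. The guide 2 and shScramble libraries overlapped (log2 fold change -0.0025 ± 0.24, edgeR adjusted p = 0.994), and in the libraries labelled guide 1 COL4A6 rose (log2 fold change 2.57 ± 0.18, edgeR adjusted p = 6.65e-12). The TPM ratio of COL4A6 to COL4A5 was 0.033 ± 0.0093 with shScramble, 0.042 ± 0.015 with guide 2 and 0.263 ± 0.022 in the libraries labelled guide 1, with overlapping ranges in the guide 2 and shScramble libraries.

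**Figure D3:**
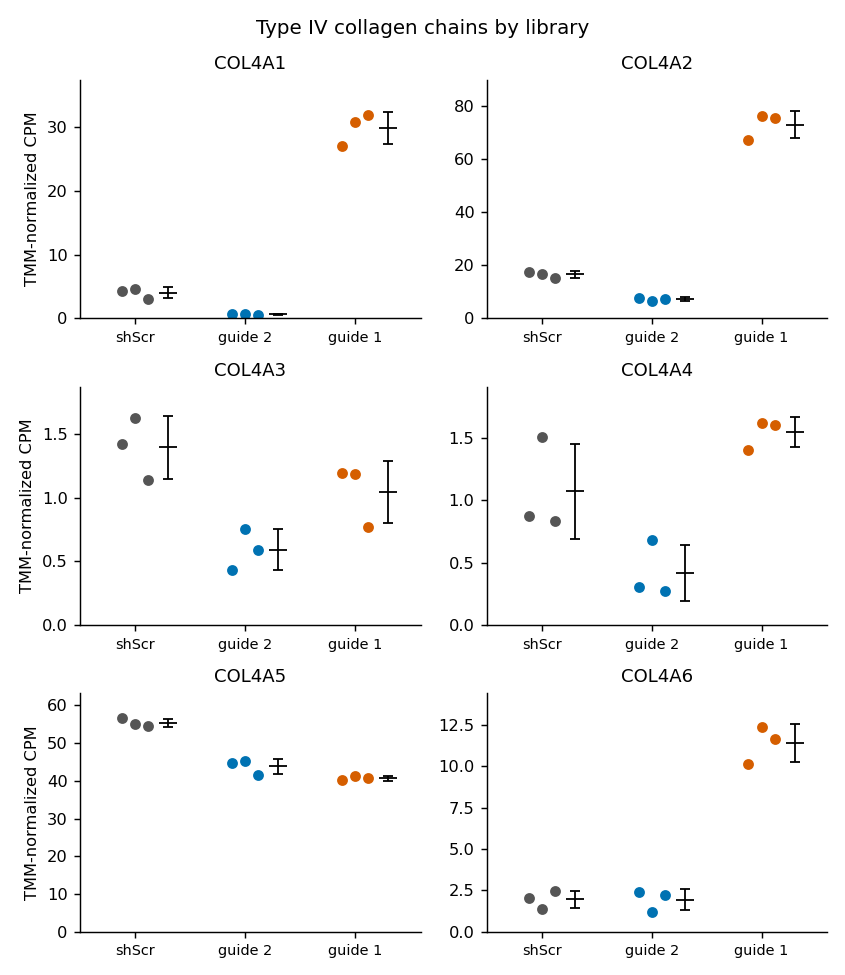
Level of the 6 type IV collagen chains in TMM-normalized counts-per-million (CPM) in the 9 libraries, with shScramble in grey, guide 2 in blue and the libraries labelled guide 1 in orange. Points are libraries, and black bars are the mean and SD of 3 libraries. COL4A1, COL4A2 and COL4A6 stood far above shScramble in the libraries labelled guide 1, whereas COL4A5 was lower there at 40.7 CPM against 55.4 CPM.

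Among the FACIT chains, COL16A1 fell in both shMETTL3 groups, COL14A1 fell in one and rose in the other, and COL9A3 rose with guide 2. COL16A1 (ENSG00000084636, chr1:31652247-31704319), a minor fibril-associated collagen, was the most abundant FACIT chain of the shScramble libraries at 35.0 ± 2.56 TPM. It was at 87.3, 103 and 97.0 CPM with shScramble, 17.5, 16.6 and 17.5 CPM with guide 2 and 33.1, 31.1 and 29.4 CPM in the libraries labelled guide 1. It fell in both groups, by more with guide 2 (log2 fold change -2.48 ± 0.067, edgeR adjusted p = 7.56e-21) than in the libraries labelled guide 1 (log2 fold change -1.62 ± 0.061, edgeR adjusted p = 6.46e-19), and the direct test gave the difference (log2 fold change -0.86 ± 0.071, edgeR adjusted p = 1.16e-11). COL16A1 and the scarce COL21A1 were the 2 collagens called lower in both groups.

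COL14A1 (ENSG00000187955), which encodes a collagen that sits on type I fibrils and regulates their growth, was at 5.43, 5.99 and 6.65 CPM with shScramble, 0.520, 1.195 and 0.815 CPM with guide 2 and 104, 101 and 104 CPM in the libraries labelled guide 1. Its counts in the guide 2 libraries were 12, 30 and 18, above the floor. It fell with guide 2 (log2 fold change -2.80 ± 0.17, edgeR adjusted p = 6.55e-14) and rose in the libraries labelled guide 1 (log2 fold change 4.11 ± 0.08, edgeR adjusted p = 4.08e-25). The direct difference of -6.91 ± 0.11 on the log2 scale (edgeR adjusted p = 4.21e-27) was the largest among the 28 collagen genes. In the libraries labelled guide 1 it was the most abundant FACIT chain, at 41.97 ± 0.541 TPM.

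COL9A3, a chain of the type IX collagen that decorates cartilage fibrils, was the 1 collagen raised with guide 2. The gene (ENSG00000092758, chr20:62816244-62841159) was at 13.2, 14.99 and 14.9 CPM with shScramble, 27.9, 24.5 and 23.5 CPM with guide 2 and 15.5, 14.7 and 14.3 CPM in the libraries labelled guide 1. Every guide 2 library lay above all others (log2 fold change 0.81 ± 0.082, edgeR adjusted p = 1.91e-09), while the libraries labelled guide 1 overlapped with shScramble (log2 fold change 0.045 ± 0.085, edgeR adjusted p = 0.651). Its partner chain COL9A2 was not called in any comparison, at 3.70 ± 0.699, 4.12 ± 0.433 and 3.79 ± 0.575 CPM, and the third partner COL9A1 had 1 count at most in any library. The TPM ratio of COL9A2 to COL9A3 was 0.301 ± 0.063 with shScramble, 0.190 ± 0.026 with guide 2 and 0.298 ± 0.045 in the libraries labelled guide 1.

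The other FACIT chains tested were scarce. COL19A1 had 7, 11 and 1 counts with shScramble, 0, 0 and 2 with guide 2 and 39, 29 and 39 in the libraries labelled guide 1. The libraries labelled guide 1 were above all others, which is given without a test because only they brought the gene past the filter. Pooled over libraries, its level with guide 2 was 0.128 times that of shScramble (95% exact binomial interval 0.0145 to 0.532, counting error only), and the groups overlapped. The guide 2 call of COL19A1, at an edgeR adjusted p of 0.0127, was lost without guide 2 replicate 1 or 2 or shScramble replicate 2, with adjusted p of 0.058, 0.0601 and 0.0875. COL21A1 had 24, 25 and 23 counts with shScramble, 0, 0 and 1 with guide 2 and 11, 14 and 12 in the libraries labelled guide 1. The single read in the guide 2 libraries corresponded to 0.0169 times the shScramble level (95% interval 0.000423 to 0.0974), and COL21A1 was also lower in the libraries labelled guide 1 (log2 fold change -0.97 ± 0.37, edgeR adjusted p = 0.021). COL20A1 did not exceed 0.526 CPM in any library and passed the filter only through the libraries labelled guide 1. Its only call, in the direct comparison (log2 fold change -1.31 ± 0.51), is therefore given without a p-value. COL21A1 and COL20A1 are given after their values were seen.

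Among the fibrillar chains, COL1A1 was the most abundant per length in all shScramble and guide 2 libraries, while in the libraries labelled guide 1 COL5A1 was above it in 2 of 3 (6.78, 8.04 and 6.52 TPM against 6.54, 7.41 and 8.66 TPM for COL1A1), 4 chains fell with guide 2, and COL27A1 and COL2A1 rose in the libraries labelled guide 1. COL1A1, the main chain of type I collagen, was at 45.4, 41.5 and 43.2 CPM with shScramble, 33.2, 36.2 and 36.6 CPM with guide 2 and 18.6, 19.99 and 24.5 CPM in the libraries labelled guide 1. It fell in the libraries labelled guide 1 (log2 fold change -1.04 ± 0.078, edgeR adjusted p = 8.58e-12) and was below the fold threshold with guide 2 (log2 fold change -0.30 ± 0.075, edgeR adjusted p = 0.00146), and the direct difference was 0.75 ± 0.08 on the log2 scale (edgeR adjusted p = 5.86e-09). Its partner COL1A2, the second chain of the usual type I molecule, had 1 count or 0 in every library.

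COL27A1, a fibrillar chain of developing cartilage, was at 5.85, 5.18 and 5.21 CPM with shScramble, 2.95, 2.11 and 2.76 CPM with guide 2 and 23.98, 23.6 and 20.9 CPM in the libraries labelled guide 1. It fell with guide 2 (log2 fold change -1.06 ± 0.14, edgeR adjusted p = 2.95e-07) and rose in the libraries labelled guide 1 (log2 fold change 2.07 ± 0.10, edgeR adjusted p = 2.60e-16). COL2A1, the chain of the fibre-forming type II collagen of cartilage, was at 2.29, 2.67 and 2.28 CPM with shScramble, 1.73, 2.51 and 2.26 with guide 2 and 10.8, 12.5 and 11.6 in those labelled guide 1. The guide 2 and shScramble libraries overlapped (log2 fold change -0.16 ± 0.18, edgeR adjusted p = 0.456), and it rose in the libraries labelled guide 1 (log2 fold change 2.26 ± 0.14, edgeR adjusted p = 2.03e-14). Beside these cartilage collagens, the summed level of 6 chondrocyte markers, none of them at 0 in all libraries, was 11.7 to 13.2 CPM with shScramble, 8.53 to 9.51 CPM with guide 2 and 16.4 to 18.6 CPM in the libraries labelled guide 1, and its part in the result was not tested. Most of this sum was SOX9, which was not called. COMP, a cartilage matrix protein, was at 0.665 ± 0.0740 CPM with shScramble and was lower with guide 2, at 0.139 ± 0.0869 CPM (log2 fold change -2.19). That guide 2 level, from 10 counts over the 3 libraries, was near the floor, and no guide 2 library reached the filter's level. COMP rose to 3.54 ± 0.606 CPM in the libraries labelled guide 1 (2.40), where MATN3, a matrilin of cartilage, also rose (1.36). Only 1 shScramble and 1 guide 2 library reached the filter's level for MATN3, so it entered the test through those labelled guide 1. MATN1 was not called against shScramble in either group, and ACAN and CNMD were too scarce to test.

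COL5A1 and COL5A2, the partner chains of the type V collagen that nucleates type I fibrils, were lower with guide 2. COL5A1 was at 15.1, 14.7 and 17.6 CPM with shScramble, 9.75, 9.999 and 8.70 CPM with guide 2 and 21.9, 24.7 and 21.0 CPM in the libraries labelled guide 1. COL5A2 was at 2.42, 4.05 and 2.89 CPM with shScramble, 0.693, 1.35 and 0.861 with guide 2 and 4.66, 3.52 and 4.98 in those labelled guide 1. With guide 2 both COL5A1 (log2 fold change -0.73 ± 0.097, edgeR adjusted p = 2.53e-07) and COL5A2 (log2 fold change -1.67 ± 0.25, edgeR adjusted p = 2.90e-06) fell without overlap. In the libraries labelled guide 1 neither COL5A1 (log2 fold change 0.52 ± 0.086, edgeR adjusted p = 5.42e-06) nor COL5A2 (log2 fold change 0.49 ± 0.19, edgeR adjusted p = 0.0293) reached the fold threshold. COL5A1 was called there without shScramble replicate 3 (log2 fold change 0.59) and COL5A2 without shScramble replicate 2 (0.73) or guide 1 replicate 2 (0.61).

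The remaining fibrillar chains tested were COL11A2, a chain of the type XI collagen of cartilage fibrils, and COL24A1, a fibrillar chain of developing bone. COL11A2 had 42, 73 and 42 counts with shScramble, 24, 22 and 12 with guide 2 and 63, 56 and 90 in the libraries labelled guide 1. It fell with guide 2 (log2 fold change -1.15 ± 0.28, edgeR adjusted p = 0.00104) and was not called in the libraries labelled guide 1 (log2 fold change 0.40 ± 0.23, edgeR adjusted p = 0.13). COL24A1 had 33, 27 and 26 counts with shScramble, 18, 12 and 20 with guide 2 and 34, 40 and 34 in those labelled guide 1. It was called only in the direct comparison (log2 fold change -0.81 ± 0.30, edgeR adjusted p = 0.0173), a call lost without guide 2 replicate 2 or guide 1 replicate 2 (adjusted p of 0.113 and 0.0696).

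The 3 transmembrane chains tested all rose in the libraries labelled guide 1. COL25A1, first found with amyloid plaques and needed for motor innervation, was at 1.196, 0.753 and 0.875 CPM with shScramble, 0.260, 0.199 and 0.317 CPM with guide 2 and 7.15, 9.78 and 7.78 CPM in the libraries labelled guide 1. It fell with guide 2, where it had 6, 5 and 7 counts (log2 fold change -1.86 ± 0.36, edgeR adjusted p = 7.79e-05), and rose in the libraries labelled guide 1 (log2 fold change 3.12 ± 0.19, edgeR adjusted p = 3.44e-14). COL13A1, a collagen of adhesion sites and the neuromuscular junction, was at 1.45, 0.941 and 0.875 CPM with shScramble, 0.996, 0.837 and 1.13 with guide 2 and 4.80, 4.49 and 4.18 in those labelled guide 1. COL23A1 was at 0.905, 0.596 and 1.01 CPM with shScramble, 0.736, 1.08 and 0.362 with guide 2 and 5.58, 5.57 and 4.58 in those labelled guide 1. With guide 2 both COL13A1 (log2 fold change -0.17 ± 0.26, edgeR adjusted p = 0.597) and COL23A1 (log2 fold change -0.15 ± 0.32, edgeR adjusted p = 0.695) overlapped with shScramble. In the libraries labelled guide 1 both COL13A1 (log2 fold change 2.02 ± 0.20, edgeR adjusted p = 9.41e-10) and COL23A1 (log2 fold change 2.67 ± 0.23, edgeR adjusted p = 5.16e-11) were above every other library. COL17A1, the hemidesmosome collagen of basal epithelial cells, was too scarce to test, at 0.185 ± 0.127, 0.1002 ± 0.0921 and 0.148 ± 0.102 CPM.

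**Figure D4:**
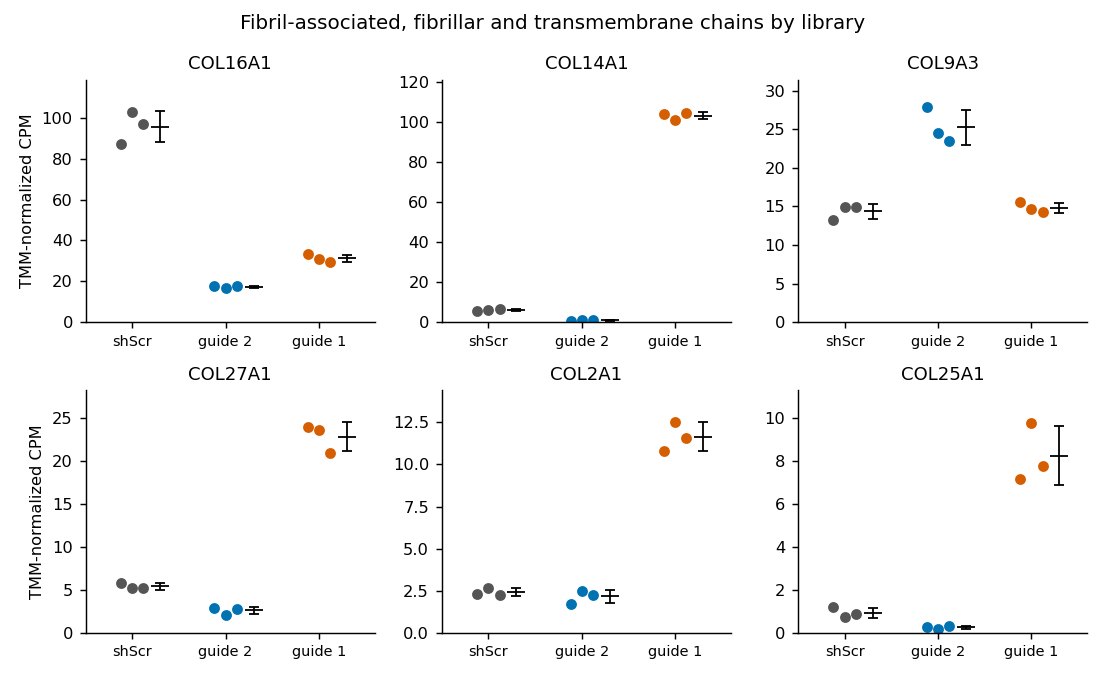
Level of 3 fibril-associated chains (COL16A1, COL14A1 and COL9A3), 2 fibrillar chains (COL27A1 and COL2A1) and 1 transmembrane chain (COL25A1) in TMM-normalized counts-per-million (CPM) in the 9 libraries, with shScramble in grey, guide 2 in blue and the libraries labelled guide 1 in orange. Points are libraries, and black bars are the mean and SD of 3 libraries. COL16A1 was lower in both shMETTL3 groups, at 17.2 and 31.2 CPM against 95.7 CPM, whereas COL14A1 rose from 6.02 to 103 CPM in the libraries labelled guide 1.

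The abundant type VI chains changed by less than the fold threshold. COL6A1 (chr21:45981737-46005050) and COL6A2 (chr21:46098097-46132849) are neighbours on the plus strand of chromosome 21. COL6A1 was at 379, 391 and 370.3 CPM with shScramble, 320.4, 315 and 308 CPM with guide 2 and 246, 272 and 266 CPM in the libraries labelled guide 1. COL6A2 was at 124, 124 and 117 CPM with shScramble, 97.5, 90.3 and 101 with guide 2 and 88.0, 94.9 and 92.4 in those labelled guide 1. Both were lower than shScramble in all libraries of both groups, by less than 1.5-fold, with log2 fold changes of -0.27 ± 0.046 and -0.34 ± 0.049 with guide 2 and of -0.54 ± 0.046 and -0.41 ± 0.049 in the libraries labelled guide 1. The edgeR adjusted p was between 4.00e-11 and 1.13e-05 for these 4 changes, so that they exceeded the spread between libraries without reaching the fold threshold. The TPM ratio of COL6A2 to COL6A1 was 0.318 ± 0.0055 with shScramble, 0.304 ± 0.020 with guide 2 and 0.349 ± 0.0061 in the libraries labelled guide 1. COL6A3, the largest chain of type VI collagen, had 5, 5 and 5 counts with shScramble, 2, 0 and 0 with guide 2 and 15, 8 and 18 in the libraries labelled guide 1, and was not tested.

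COL7A1, which forms the anchoring fibrils under squamous epithelia, was at 4.49, 4.86 and 4.64 CPM with shScramble, 2.73, 2.83 and 2.31 CPM with guide 2 and 5.40, 4.93 and 5.21 CPM in the libraries labelled guide 1. It fell with guide 2 (log2 fold change -0.83 ± 0.15, edgeR adjusted p = 3.24e-05) and was not called in the libraries labelled guide 1 (log2 fold change 0.15 ± 0.13, edgeR adjusted p = 0.321). COL18A1, the multiplexin of basement membranes from which endostatin is cut, was at 20.001, 17.2 and 20.9 CPM with shScramble, 18.3, 18.4 and 16.1 with guide 2 and 25.5, 29.2 and 25.3 in those labelled guide 1. It was called only in the direct comparison (log2 fold change -0.60 ± 0.083, edgeR adjusted p = 3.10e-07), and the call was lost without guide 2 replicate 3 or guide 1 replicate 2, where the log2 difference was -0.53 and -0.52. Of its exon bases, 16.4% are shared with the antisense gene SLC19A1, and since the strand setting of the counting is not given in the sources used here, reads there could belong to either gene. No other collagen shares more than 4% of its exon bases with another gene. COL8A2 was not called in any comparison, at 0.911 ± 0.202, 0.751 ± 0.397 and 0.583 ± 0.131 CPM.

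The 15 collagen genes that were not tested had a mean of at most 0.472 CPM in every group and at most 18 counts in any library. They comprised COL1A2, COL3A1, COL5A3, COL11A1, COL9A1, COL12A1, COL22A1, COL17A1, COL6A3, COL6A5, COL6A6, COL8A1, COL10A1, COL15A1 and COL28A1. Their counts summed to 121 over the shScramble libraries, 33 over the guide 2 libraries and 223 over the libraries labelled guide 1. COL3A1, the fibrillar type III chain of extensible tissues and reactive stroma, had 2, 8 and 3 counts with shScramble, 1, 1 and 0 with guide 2 and 8, 14 and 9 in the libraries labelled guide 1. All 15 were left out by the filter on low counts, and all 43 genes were in the fit without it. Pooled over libraries, COL3A1 with guide 2 was at 0.0792 times its level in the libraries labelled guide 1 (95% exact interval 0.00919 to 0.311), COL6A3 was at 0.0599 times (0.00702 to 0.231), and COL6A6 in the libraries labelled guide 1 was at 9.93 times its shScramble level (3.09 to 50.9). These 3 were chosen after their values were seen, and the intervals cover counting error only.

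Markers of matrix-producing cells were measured beside the collagens. The summed level of 9 fibroblast markers was 7.03 to 8.80 CPM with shScramble, 4.64 to 5.22 CPM with guide 2 and 33.7 to 36.4 CPM in the libraries labelled guide 1. The defining markers DCN and FAP were at 0 in all 9 libraries, and LUM did not exceed 6 counts over any group. FBLN1 was at 5.61 ± 0.481 CPM with shScramble, 0.484 ± 0.0824 CPM with guide 2 and 29.8 ± 1.16 CPM in the libraries labelled guide 1, called lower and higher (log2 fold changes of -3.51 and 2.42). PDGFRB was called in the opposite directions (1.33 with guide 2 and -0.74 in the libraries labelled guide 1), although its values in the latter overlapped with shScramble. TWIST2 was at 0.154, 0.256 and 3.44 CPM in the same order of groups. PDGFRA, THY1 and POSTN were too scarce to test. In that order of groups PDGFRA had 2, 0 and 22 counts, THY1 19, 4 and 4, and POSTN 0, 0 and 4. Most of the sum came from FBLN1 with shScramble and in the libraries labelled guide 1, and from PDGFRB with guide 2. Smooth muscle markers (4 genes, none at 0 in all libraries) summed to 1.79 to 2.46 CPM with shScramble, 1.40 to 1.63 with guide 2 and 3.82 to 4.51 in those labelled guide 1. Endothelial markers (4 genes, PECAM1 at 0 throughout) summed to 1.27 to 1.78 CPM, 2.95 to 3.49 CPM and 0.666 to 1.34 CPM in the same order, and leukocyte markers (4 genes, CD3E at 0 throughout) to 0.533 to 0.905 CPM, 0.199 to 0.260 CPM and 1.54 to 2.03 CPM. The part of these differences in the collagen results was not tested.

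Collagen genes share a distinctive gene structure, in which exons of the triple helix are built from units that encode whole Gly-X-Y repeats. In the GENCODE release 44 canonical transcripts, 24.59% of 1928 inner exons of the 43 collagen genes were exactly 54 bases long, against 0.444% of the inner exons of 20003 other protein-coding genes. The share was 48.64% in the fibrillar class, 26.28% in the FACIT class, 8.974% in the transmembrane class and 4.196% in the basement membrane class. The motif GGACT, one form of the sequence at which METTL3 deposits m6A, was counted on the sense strand of the same transcripts. Its median density was 1.502 per kilobase over the collagen transcripts and 0.923 over the others, and by class it was 2.28 for basement membrane, 2.10 for transmembrane, 1.31 for FACIT and 1.19 for fibrillar chains. These are counts of letters, and m6A was not measured.

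Genes that modify, export, process, cross-link, bind or degrade collagen were examined as 6 lists with 57 genes, of which 52 were tested. With guide 2, 8 were raised and 9 lowered, 32.7% of those tested against 29.3% of all genes, with a median log2 fold change of -0.02. In the libraries labelled guide 1, 21 handling genes rose and 6 fell, 51.9% against 37.7% of all genes, with a median of 0.12. In the direct comparison 10 were higher and 18 lower with guide 2, 53.8% against 47.3% of all genes. By list, the cross-linking oxidases had 0 raised and 2 lowered of 5 with guide 2 and 4 raised of 5 in the libraries labelled guide 1, whereas the chaperones and export factors had 0 raised and 2 lowered of 12 with guide 2 and 2 raised and 1 lowered (of 12) in the libraries labelled guide 1. LOXL4, in both oxidase counts, CREB3L1 and TLL1 entered the test only through the libraries labelled guide 1.

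Hydroxylases and glycosyltransferases modify the nascent chains. Of 14 genes, 4 were raised and 2 lowered with guide 2, while the libraries labelled guide 1 had 6 raised and 0 lowered. Over all genes, 8.85% were raised and 20.4% lowered with guide 2, and in the libraries labelled guide 1 the shares were 21.2% and 16.5%, which is the background for each list. PLOD2, a lysyl hydroxylase, was at 44.5, 34.1 and 54.2 CPM with shScramble, 16.8, 20.1 and 22.2 CPM with guide 2 and 85.1, 99.3 and 89.5 CPM in the libraries labelled guide 1, with no overlap between the groups (log2 fold change -1.16 ± 0.20, edgeR adjusted p = 0.00196 with guide 2, and log2 fold change 1.05 ± 0.17, edgeR adjusted p = 0.0013 in the libraries labelled guide 1). P4HA2, a prolyl 4-hydroxylase subunit, fell with guide 2 from 54.9 ± 1.99 to 31.7 ± 2.54 CPM (log2 fold change -0.80 ± 0.065, edgeR adjusted p = 3.19e-11). P3H3 and COLGALT2, a prolyl 3-hydroxylase family member and a collagen galactosyltransferase, rose in the libraries labelled guide 1 from 2.72 ± 0.314 to 12.1 ± 1.18 CPM and from 7.13 ± 0.273 to 25.3 ± 0.967 CPM. P3H2, a prolyl 3-hydroxylase, rose in both groups, from 0.431 ± 0.108 CPM to 0.931 ± 0.194 CPM with guide 2 and 1.48 ± 0.342 CPM in the libraries labelled guide 1.

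Of the chaperones and export factors, SERPINH1, the collagen-specific chaperone HSP47, was at 31.3, 32.7 and 34.0 CPM with shScramble, 31.9, 30.7 and 30.5 CPM with guide 2 and 86.2, 74.5 and 85.4 CPM in the libraries labelled guide 1. It overlapped with shScramble with guide 2 (log2 fold change -0.074 ± 0.064, edgeR adjusted p = 0.323) and rose in the libraries labelled guide 1 (log2 fold change 1.33 ± 0.059, edgeR adjusted p = 2.47e-17). CREB3L1, a transcription factor of collagen-secreting cells, was at 0.188 ± 0.0975 CPM with shScramble and 1.58 ± 0.394 CPM in the libraries labelled guide 1, through which alone it passed the filter. MIA2, which helps load collagen into transport vesicles, was called lower in both groups (log2 fold changes of -0.89 ± 0.098 with guide 2 and -0.66 ± 0.094 in the libraries labelled guide 1), but 42.9% of its exon bases are shared with other genes, 32.7% on the same strand, so reads there are uncertain. The vesicle coat component SEC24D fell with guide 2 (log2 fold change -0.61 ± 0.051, edgeR adjusted p = 5.15e-11).

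Enzymes that trim procollagen gave 2 raised and 0 lowered of 7 genes with guide 2, whereas the libraries labelled guide 1 had 4 raised and 0 lowered, against 8.85% and 21.2% of all genes raised in these comparisons. Of the 4, TLL1 passed the filter only through the libraries labelled guide 1. PCOLCE2, an enhancer of procollagen C-proteinase, rose in the libraries labelled guide 1 from 0.999 ± 0.357 to 13.3 ± 0.638 CPM (log2 fold change 3.68 ± 0.17, edgeR adjusted p = 2.71e-17) and was not called with guide 2. ADAMTS2, a procollagen N-proteinase, rose there from 1.42 ± 0.700 to 6.23 ± 0.866 CPM. The related ADAMTS3 rose in both groups, from 4.49 ± 0.365 CPM to 8.44 ± 0.934 and 8.81 ± 1.62 CPM, and the C-proteinase TLL2 rose with guide 2 from 2.14 ± 0.483 to 3.34 ± 0.345 CPM.

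Lysyl oxidases cross-link collagen outside the cell. LOX was at 0.614, 0.784 and 1.01 CPM with shScramble, 0.910, 0.837 and 0.498 CPM with guide 2 and 8.06, 8.99 and 8.45 CPM in the libraries labelled guide 1, where all libraries were above all others (log2 fold change 3.43 ± 0.19, edgeR adjusted p = 3.50e-15). LOXL2 fell with guide 2 and rose in the libraries labelled guide 1, at 1.00, 1.13 and 1.75 CPM with shScramble, 0.693, 0.279 and 0.272 with guide 2 and 4.66, 5.28 and 3.78 in those labelled guide 1 (log2 fold changes of -1.60 ± 0.35 and 1.85 ± 0.23). LOXL4 was called in the same directions, with 7, 11 and 12 counts with shScramble, 3, 1 and 0 with guide 2 and 185, 137 and 186 in those labelled guide 1, so that its guide 2 level was at the floor. Only 1 shScramble library and no guide 2 library reached the filter's level, so LOXL4 entered the test through the libraries labelled guide 1.

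The collagen receptors DDR1 and DDR2 moved oppositely to each other. DDR2, a receptor tyrosine kinase for fibrillar collagen, was at 20.3, 18.5 and 23.9 CPM with shScramble, 5.198, 4.90 and 5.66 CPM with guide 2 and 172, 172 and 166 CPM in the libraries labelled guide 1 (log2 fold change -1.98 ± 0.092, edgeR adjusted p = 4.48e-16 with guide 2, and log2 fold change 3.03 ± 0.065, edgeR adjusted p = 4.79e-24 in the libraries labelled guide 1). DDR1, its epithelial relative, was at 159, 162 and 146 CPM with shScramble, 293, 267 and 297 with guide 2 and 97.1, 102 and 106 in those labelled guide 1 (log2 fold change 0.88 ± 0.05, edgeR adjusted p = 2.70e-14 with guide 2, and log2 fold change -0.62 ± 0.051, edgeR adjusted p = 2.07e-11 in the libraries labelled guide 1). No values overlapped between groups for either receptor. MRC2, the endocytic receptor that takes up collagen and shares 12.6% of its exon bases with a gene on the other strand, had 59, 57 and 54 counts with shScramble, 2, 3 and 9 with guide 2 and 543, 490 and 514 in the libraries labelled guide 1, falling with guide 2 (log2 fold change -3.29 ± 0.33, edgeR adjusted p = 1.50e-09) and rising in the libraries labelled guide 1 (log2 fold change 3.17 ± 0.14, edgeR adjusted p = 2.86e-17). ITGA1, the alpha subunit of a collagen-binding integrin, rose in both groups, from 2.13 ± 0.129 CPM to 4.25 ± 0.855 and 4.38 ± 0.185 CPM.

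Of 5 collagen-degrading proteases tested, 1 was lowered with guide 2 while the libraries labelled guide 1 had 2 raised and 3 lowered, and over all genes 20.4% were lowered with guide 2. MMP2, a gelatinase, had 19, 14 and 15 counts with shScramble, 0, 0 and 2 with guide 2 and 64, 75 and 80 in the libraries labelled guide 1. MMP14, a membrane-bound collagenase that activates MMP2, rose in the libraries labelled guide 1 from 0.335 ± 0.0635 to 2.67 ± 0.247 CPM. MMP13, a collagenase, and MMP16, a membrane-bound relative of MMP14, fell there from 1.57 ± 0.246 to 0.556 ± 0.208 CPM and from 88.1 ± 2.63 to 31.4 ± 2.96 CPM, with MMP16 at 83.4 ± 0.913 CPM with guide 2.

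**Figure D5:**
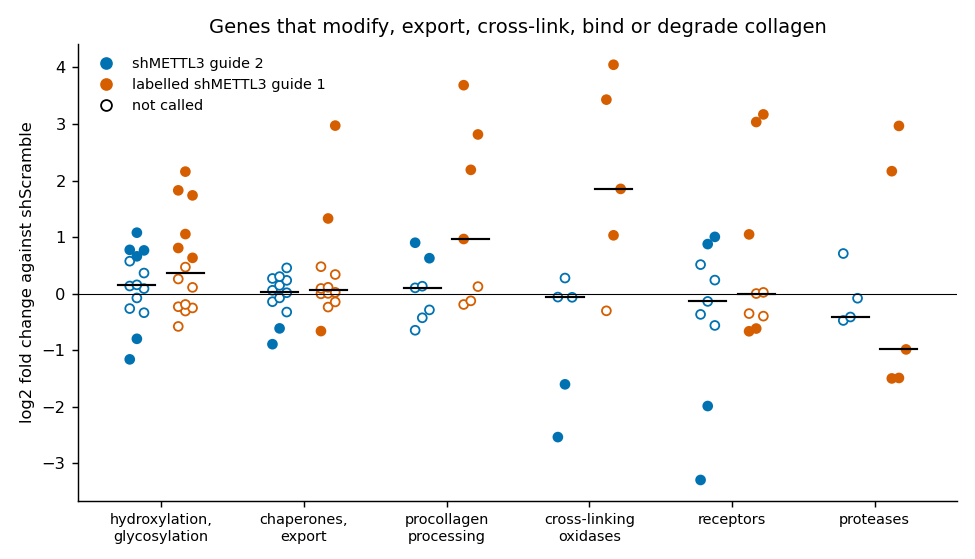
Log2 fold change against shScramble of the collagen-handling genes tested, in 6 lists, for guide 2 (blue) and the libraries labelled guide 1 (orange). Points are genes, filled points were called, and black lines are medians over all genes tested in a list, MMP2 included. The guide 2 point of MMP2 is left out because 2 counts were seen in that group. In the cross-linking oxidases 4 of 5 genes rose in the libraries labelled guide 1 and 0 with guide 2. LOXL4, among the 4, entered the test through the libraries labelled guide 1.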

How the data were processed

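The authors trimmed adapters with Trim Galore, cutadapt and FastQC, discarded low-quality reads, aligned the rest to GRCh38 with STAR and counted them by gene with featureCounts. They deposited the raw count of each gene in each of 9 libraries, without normalization. Strand setting and treatment of multi-mapping reads are not given in the sources used here. Of 60675 gene identifiers, 56558 (93.2%) matched a symbol in GENCODE release 44, and coordinates are those of the deposited files. CPM were scaled by TMM factors, and TPM used the exon length in the files. Genes passed filterByExpr (minimum count 10, minimum total 15), which left 19278. The test was edgeR's (4.0.16) quasi-likelihood F test with robust estimation on all 9 libraries, with 1 coefficient per group and no covariate. The common biological coefficient of variation was 0.051. On simulated counts for guide 2 against shScramble (18893 genes), 190 of 200 changed genes were recovered with 1 false call. The changed genes had an expected count above 10 per library and folds above the threshold, as many up as down. Guide 1 was simulated as unchanged, so these numbers are not the error rate of the calls reported.

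The collagen genes, classes and lists were chosen with earlier results of these data known. Values in every library are given for each collagen called in at least 1 comparison with a mean of at least 1 CPM in some group, and others by counts and ranges. From each handling list up to 3 called genes per comparison with the largest change at that level are named. Intervals of low counts cover counting error only. Alternatives were DESeq2 (1.42.0) in place of edgeR, its size factors, library size alone, no filter, a mean of at least 1 CPM, fits on the 6 libraries of a comparison, a replicate block, the adjusted p alone, RPKM in place of TPM and each library left out.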

Additional observations from a re-analysis of the deposited data

Results flagged for a closer look

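For 23 of the 28 collagen genes tested, the changes in the 2 shMETTL3 groups differed by the direct test of guide 2 against the libraries labelled guide 1. Over all genes tested, 47.3% were called in that comparison. COL19A1 and COL20A1, among the 23, entered the test only through the libraries labelled guide 1. The 6 genes called in opposite directions against shScramble differed by -6.91 for COL14A1, -5.57 for COL4A1, -5.23 for COL19A1, -4.98 for COL25A1, -3.34 for COL4A2 and -3.14 for COL27A1, as log2 fold changes of guide 2 against the libraries labelled guide 1. The COL19A1 value rests on 2 counts in the guide 2 libraries and ran from -8.09 without guide 2 replicate 3 to -4.66 without guide 2 replicate 2, so it has no place in an order, and the pooled level there was 0.0229 times that of the libraries labelled guide 1 (95% exact interval 0.00274 to 0.0849, counting error only).

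The same difference was -2.82 for COL23A1, -2.57 for COL4A6, -2.42 for COL2A1 and -2.19 for COL13A1, genes raised in the libraries labelled guide 1 and not called with guide 2. It was -2.16 for COL5A2, -1.85 for COL4A4, -1.55 for COL11A2, -1.25 for COL5A1, -0.98 for COL7A1 and -0.81 for COL4A3, genes lowered with guide 2 and not called in the libraries labelled guide 1. COL21A1 and COL16A1, lower in both groups, differed by -4.52 and -0.86, the former with 1 count over the guide 2 libraries (pooled ratio 0.0332, 95% exact interval 0.000818 to 0.197). COL20A1 differed by -1.31, COL24A1 by -0.81 and COL18A1 by -0.60, with no call against shScramble in either group. COL1A1 and COL9A3 were higher with guide 2 than in the libraries labelled guide 1, by 0.75 and 0.77.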

How the results depend on the processing

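The counts of collagen genes raised and lowered were within 1.5 times their reported values under DESeq2, its size factors, library size alone, no filter, a minimum mean of 1 CPM and only the 6 libraries compared. The exception among the counts was the adjusted p alone, which gave 6 lowered genes in place of 3 in the libraries labelled guide 1. It called 11910, 13188 and 14386 genes over the 3 comparisons in place of 5645, 7265 and 9125. Library size alone moved the median log2 fold change of all genes with guide 2 from -0.04 to -0.19 and that of the collagens from -0.62 to -0.77. Leaving out 1 library gave 13 to 15 lowered with guide 2 (1 raised), 10 to 13 raised and 2 or 3 lowered in the libraries labelled guide 1, and 19 to 23 lower and 2 higher in the direct comparison. With RPKM, the summed level with guide 2 over shScramble was 0.770 for all collagens, 0.678 for basement membrane, 0.714 for fibrillar and 0.819 for the other chains, in place of 0.718, 0.632, 0.666 and 0.764 with TPM.

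COL4A6 with guide 2 changed sign with DESeq2 (0.016), with its size factors (0.0072) and without the filter (0.019), and ranged from -0.22 to 0.27 with 1 library left out. In the same way COL13A1 with guide 2 ranged from -0.28 to 0.11, COL23A1 with guide 2 from -0.56 to 0.15, and COL9A3 in the libraries labelled guide 1 from -0.016 to 0.075. None of these was called. DESeq2 did not call COL24A1 and COL4A3 in the direct comparison (adjusted p of 0.0645 and 0.0792), nor did the fit without the filter call COL4A3 (0.0512) or COL18A1, whose log2 difference was -0.58. The causes were not tested.

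Same-numbered libraries did not deviate together, with correlations of their deviations from the group means between -0.098 and 0.053. No pairing by number was therefore seen, which does not exclude that same-numbered libraries were prepared together. With the replicate number as a block, the counts were 14 lowered and 1 raised with guide 2, 3 lowered and 10 raised in the libraries labelled guide 1, and 21 lower and 2 higher in the direct comparison, and METTL3 differed by -0.95 with guide 2 and -0.083 in the libraries labelled guide 1. Depth limits the 15 scarce collagens left out by the filter, and the guide 2 levels of COL19A1 and COL21A1.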
